A study of Homo sapiens with 33 samples.

Results

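The glucocorticoid receptor and the chaperone machinery that holds it in a hormone-binding state were followed as a group of 10 genes across 33 RNA-seq libraries from acute lymphoblastic leukaemia (ALL) cell lines. The genes were chosen by symbol for their known roles, at a time when earlier results of these data were known: the receptors NR3C1 and NR3C2, the Hsp90 and Hsp70 chaperones HSP90AA1, HSP90AB1 and HSPA8, the cochaperones PTGES3 and STIP1, the immunophilins FKBP4 and FKBP5, and the coactivator NCOA2. All 10 were matched among 62446 gene entries, and all 10 passed the low-count filter in each of the 13 comparisons made. The glucocorticoid receptor, encoded by NR3C1, is a nuclear hormone receptor that waits in the cytoplasm bound to Hsp90. Hsp70 and the adaptor Hop (STIP1) deliver it to Hsp90, p23 (PTGES3) stabilises the mature complex, and the immunophilins FKBP51 (FKBP5) and FKBP52 (FKBP4) compete for the same place on Hsp90. FKBP51 lowers the affinity of the receptor for hormone and is itself a well-known glucocorticoid target, while FKBP52 favours transport to the nucleus. In lymphoid leukaemia the receptor mediates the killing of lymphoblasts by glucocorticoids, and a rise of its own transcript after hormone is called autoinduction.

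The libraries fell into 11 titled groups of 3. Nalm6, a B-cell precursor ALL line, was left untreated (a first set), treated with CHIR-99021, which activates Wnt signalling by inhibiting GSK3, at 0.5 µM for 24 h, or treated with prednisolone at 5 µM for 24 h. A second set of Nalm6 libraries was untreated or treated with dexamethasone at 100 nM for 24 h. The titles tie an untreated Nalm6 group by name to dexamethasone only. Comparing the prednisolone libraries with the first untreated set is therefore a choice made here. A Nalm6 derivative in which TLE1, a transcriptional corepressor gene, had been knocked out with CRISPR/Cas9 was untreated, treated with 5 µM prednisolone or treated with 100 nM dexamethasone, each for 24 h. CEM, a T-cell ALL line, was untreated, treated with 2 µM CHIR-99021 or treated with 10 µM prednisolone, each for 24 h. The labels give charcoal-stripped serum, which is depleted of steroids, for the Nalm6 and knockout cultures, and they do not say whether the knockout line is a single clone. The treatment protocol in the labels swaps the agents of the parental and knockout lines relative to the titles and the series text; the titles were followed. An untreated knockout group of the dexamethasone set was not analysed here, so knockout dexamethasone libraries were compared with the untreated knockout libraries that also served for prednisolone. The series text names independent experiments for the first groups; where replicates were not separate cultures, the p-values measure only the spread between these libraries. In these cultures fewer cells of a type and less RNA per cell cannot be told apart.

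Each library held between 25292579 and 61930057 counts in genes. The 8 B-cell precursor markers were all above 1 CPM (counts per 1000000 gene counts of the library) in every Nalm6 and knockout group, and the 8 T-cell markers were all above it in every CEM group. Of the T-cell markers, CD3D, CD3E, CD3G, CD7 and CD5 had at most 3 counts each in all Nalm6 and knockout groups but the second untreated Nalm6 set. There 4 of the 5 exceeded 3 counts and their sum reached at most 0.0676% of the untreated CEM level. The other 3, LCK, BCL11B and PTCRA, were above 1 CPM in every Nalm6 and knockout group. LCK held 17.8 to 38.9 CPM in Nalm6 and 20.9 to 44.4 CPM in the knockout. In every CEM group 4 of the 8 B-cell precursor markers were above 1 CPM, among them CD79A at 21.3 to 60.5 CPM and IGLL1 at 15.2 to 30.9 CPM. TSC22D3, which encodes the glucocorticoid-induced leucine zipper GILZ and served as the treatment check, rose in all 5 glucocorticoid comparisons, by 3.99 to 5.96 on the log2 scale. TLE1 transcript was still present in the knockout, at 24.5 ± 0.783 CPM (SD, n = 3) in untreated cells, a log2 difference of -0.36 ± 0.06 from parental cells (SE, edgeR adjusted p = 0.00200), and a count over the whole gene does not check the edit. The 2 untreated Nalm6 sets differed at 50.2% of 17478 tested genes, and 5 of the 10 genes of the complex were called there, all lower in the second set.

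Promoter sequences are shown for the chaperone genes HSP90AA1, HSP90AB1 and HSPA8 because the results below turn on their levels and because a window of each carried the same short motif. The windows run from 250 bases before to 50 bases after a transcript start, from RefSeq on GRCh38.p14, and 8 of the 10 genes were read from that table. Capitals mark a heat shock element pattern, read as TTC, any 2 bases, GAA, any 2 bases and TTC, which was searched on both strands. It was present in 172 of 35116 promoters of the same length (0.49%).

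HSP90AB1 (chr6:44247693-44247992, plus strand): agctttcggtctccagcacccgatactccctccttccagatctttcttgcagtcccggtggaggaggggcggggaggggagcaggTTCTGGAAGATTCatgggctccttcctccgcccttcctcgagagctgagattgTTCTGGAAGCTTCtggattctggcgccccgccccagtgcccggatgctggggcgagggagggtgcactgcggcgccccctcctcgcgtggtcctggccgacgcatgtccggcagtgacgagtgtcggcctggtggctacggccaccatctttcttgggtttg
HSPA8 (chr11:123062087-123062386, minus strand): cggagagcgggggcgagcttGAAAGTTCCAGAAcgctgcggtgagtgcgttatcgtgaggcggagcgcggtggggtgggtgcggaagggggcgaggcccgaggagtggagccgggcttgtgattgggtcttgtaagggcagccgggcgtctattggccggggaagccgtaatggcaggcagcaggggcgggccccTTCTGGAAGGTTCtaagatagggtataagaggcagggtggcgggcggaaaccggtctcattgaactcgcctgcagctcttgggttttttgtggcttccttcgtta
HSP90AA1 (chr14:102086995-102087294, minus strand): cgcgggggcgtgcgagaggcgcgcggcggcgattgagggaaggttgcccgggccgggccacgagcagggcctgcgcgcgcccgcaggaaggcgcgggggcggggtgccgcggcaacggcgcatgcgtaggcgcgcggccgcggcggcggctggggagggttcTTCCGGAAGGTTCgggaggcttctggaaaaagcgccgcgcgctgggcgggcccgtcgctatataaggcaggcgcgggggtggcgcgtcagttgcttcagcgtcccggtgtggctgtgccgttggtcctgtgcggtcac

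In HSP90AB1 the matches began 165 and 112 bases before the transcript start, in HSPA8 230 and 55 bases before it, and in HSP90AA1 88 bases before it. HSP90AB1 has 3 promoter windows in the table and HSP90AA1 has 2, and the other windows of both had no match. None of the 7 NR3C1, 4 NR3C2, 2 FKBP5, 1 PTGES3 and 2 STIP1 windows held it. The glucocorticoid response element pattern, read as GNACA, any 3 bases and TGTNC, where N is any base, is its own reverse complement. It was present in 137 of 35116 promoters (0.39%) and in no window of the 8 genes. A match is a description of letters, and a missing match says nothing about the factor or about more distant elements.

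Levels were compared between genes as CPM per kilobase of exon, in untreated Nalm6 cells of the first set. HSP90AB1 stood highest at 694 ± 23.0 CPM per kb (SD, n = 3), followed by HSPA8 at 561 ± 17.2, HSP90AA1 at 184 ± 3.13 and PTGES3 at 102 ± 0.372. STIP1 had 64.6 ± 0.585 CPM per kb, NR3C1 26.3 ± 0.172, FKBP5 10.6 ± 0.195, FKBP4 8.15 ± 0.372 and NCOA2 7.41 ± 0.160. NR3C2, the mineralocorticoid receptor gene, was lowest at 0.673 ± 0.0302 CPM per kb. The NR3C1 transcript was thus below the chaperones and cochaperones and above both immunophilins.

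NR3C1 (ENSG00000113580.15_1) rose in every glucocorticoid comparison, between 2.09-fold and 2.92-fold. In Nalm6 the 3 untreated libraries of the first set held 243, 239.7 and 241 CPM of NR3C1 and the 3 prednisolone libraries held 570.2, 562 and 543 CPM. On the log2 scale of fold changes the rise was 1.18 ± 0.04 (SE; edgeR quasi-likelihood F test, adjusted p = 2.69e-14). All prednisolone libraries lay above all untreated ones, and the untreated libraries differed from each other by little. The second Nalm6 set gave 232, 216 and 207 CPM without hormone and 539.7, 546 and 528 CPM with dexamethasone, a log2 change of 1.26 ± 0.05 (edgeR adjusted p = 2.38e-11). Again no libraries overlapped. Dexamethasone at 100 nM and prednisolone at 5 µM are different agents at different doses, taken against different untreated sets, so the fold changes stand side by side with no comparison.

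In the knockout line NR3C1 started lower and rose under both hormones. Untreated knockout libraries held 143, 155 and 163 CPM, all below the untreated Nalm6 libraries, and the log2 difference from parental cells was -0.62 ± 0.06 (edgeR adjusted p = 6.47e-05). Prednisolone raised NR3C1 to 393, 369 and 373 CPM, a log2 change of 1.26 ± 0.07 (edgeR adjusted p = 5.66e-07). Every treated library was above every untreated one, but the treated knockout libraries remained below the treated parental ones. With dexamethasone the knockout libraries held 316, 319 and 319 CPM, a log2 change of 1.06 ± 0.06 (edgeR adjusted p = 4.19e-07). The difference between the prednisolone responses of knockout and parental cells was 0.10 ± 0.08 on the log2 scale and did not pass the test (edgeR adjusted p = 0.584).

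CEM cells gave the highest NR3C1 level of the 11 groups. Their untreated libraries held 202, 201 and 207 CPM and their prednisolone libraries 607, 604 and 607 CPM, a log2 change of 1.54 ± 0.03 (edgeR adjusted p = 1.41e-17). No CEM library of one group reached the other. The CEM response exceeded the Nalm6 response by 0.37 ± 0.05 on the log2 scale (edgeR adjusted p = 6.3e-07), with prednisolone at 10 µM in CEM and 5 µM in Nalm6, so line and dose cannot be told apart. Ordered by mean, NR3C1 fell from prednisolone-treated CEM (606 CPM) through Nalm6 with prednisolone (558) and dexamethasone (538) to the knockout with prednisolone (378) and dexamethasone (318). The untreated and CHIR-99021 groups followed, from 241 CPM in the first untreated Nalm6 set to 154 CPM in the untreated knockout. Neighbours whose libraries overlapped in this order were Nalm6 prednisolone and Nalm6 dexamethasone, the second untreated Nalm6 set and Nalm6 with CHIR-99021, and the latter and untreated CEM.

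**Figure D1:**
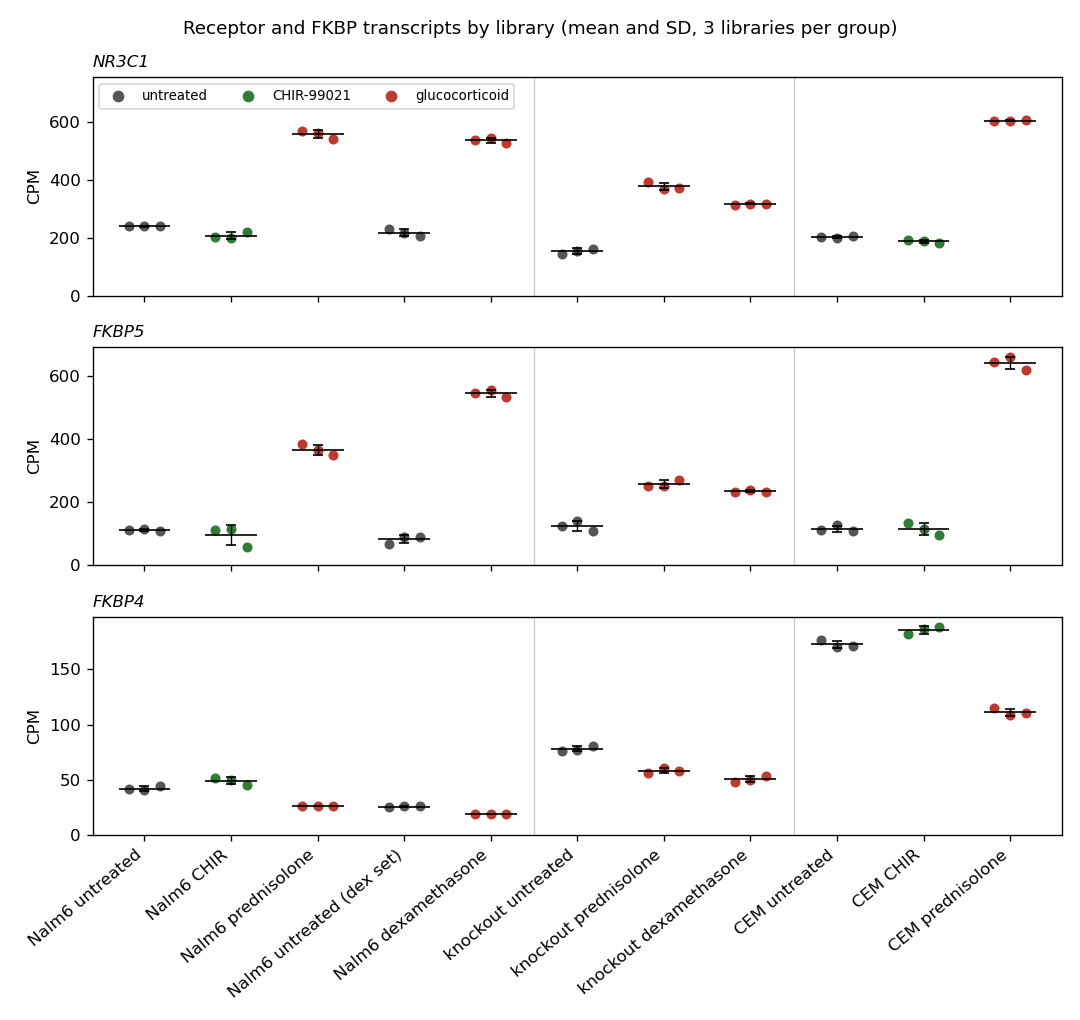
CPM of NR3C1, FKBP5 and FKBP4 (vertical axes, linear, from 0) in each of the 33 libraries, grouped by line and treatment; points are libraries, black lines the group mean and bars the SD over 3 libraries, with glucocorticoid groups in red, CHIR-99021 in green and untreated in grey. NR3C1 libraries under glucocorticoid sit between 316 and 607 CPM and all other NR3C1 libraries at or below 243 CPM, whereas FKBP4 is lower in each glucocorticoid group than in the untreated group it was compared with; for knockout dexamethasone that group also served for prednisolone, and the difference was 0.028 with the difference between untreated Nalm6 sets removed.

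FKBP5 (ENSG00000096060.15_1) rose in all 5 glucocorticoid comparisons, from 1.91-fold to 6.41-fold. Prednisolone took it from 114, 114 and 111 CPM to 384, 366 and 352 CPM in Nalm6, a log2 change of 1.67 ± 0.04 (edgeR adjusted p = 1.03e-15). Dexamethasone took it from 68.3, 90.2 and 91.8 CPM to 548, 558 and 535 CPM, a log2 change of 2.68 ± 0.08 (edgeR adjusted p = 2e-12). In both comparisons the treated and untreated libraries were far apart. Over all alternative fits, which included the other untreated Nalm6 set, the prednisolone change ranged from 1.62 to 2.03. The dexamethasone change ranged from 2.32 to 2.75, and both kept their calls. CEM libraries moved from 111, 127 and 108 CPM to 646, 661 and 621 CPM with prednisolone, a log2 change of 2.44 ± 0.05 (edgeR adjusted p = 8.88e-17). This response was larger than that of Nalm6 by 0.79 ± 0.07 (edgeR adjusted p = 3.32e-09), at the higher CEM dose.

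The knockout line reached lower FKBP5 levels under both hormones although it did not start lower. Its untreated libraries held 125, 140.1 and 109 CPM, a range that included the untreated parental values of the first set. The untreated difference from that set, 0.17 ± 0.08 on the log2 scale, did not pass the test (edgeR adjusted p = 0.158). The second untreated Nalm6 set, at 68.3 to 91.8 CPM, lay below all untreated knockout libraries, and against it the knockout was higher by 0.55. Prednisolone brought the knockout to 251, 252 and 272 CPM, a log2 change of 1.01 ± 0.09 (edgeR adjusted p = 8.08e-06). Dexamethasone brought it to 234, 239.7 and 234 CPM, a log2 change of 0.94 ± 0.08 (edgeR adjusted p = 5.16e-06). The dexamethasone value ranged from 0.85 to 1.31 over all alternative fits, which included the one with the difference between untreated Nalm6 sets removed. No treated knockout library reached the lowest treated parental library. The prednisolone response of FKBP5 was smaller in the knockout than in parental cells by -0.64 ± 0.10 on the log2 scale (edgeR adjusted p = 0.00135). FKBP5 was the 1 gene of the 10 called for that difference, in a comparison that called 3.48% of 17952 genes. Without the third untreated knockout library 3 were called among 9.96% of all genes, with FKBP4 at 0.30 (edgeR adjusted p = 0.0124) and HSP90AA1 at -0.45 (edgeR adjusted p = 0.0363) added. Under dexamethasone the knockout held 0.435 of the parental FKBP5 level, a log2 difference of -1.20 ± 0.03 (edgeR adjusted p = 2.82e-18), and that comparison called 56.6% of all genes and all 10 genes of the complex, 4 higher and 6 lower, or 8 to 9 of them with 1 library left out.

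FKBP4 (ENSG00000004478.8_1) fell in all 5 glucocorticoid comparisons, to between 0.608 and 0.724 of its untreated level. In Nalm6 it went from 41.5, 40.8 and 44.4 CPM in the first untreated set to 26.2, 26.1 and 26.3 CPM with prednisolone, a log2 change of -0.72 ± 0.05 (edgeR adjusted p = 1.05e-09). The untreated libraries of the second set held only 25.3, 26.5 and 26.1 CPM, and dexamethasone took them to 19.3, 19.0 and 18.9 CPM, a log2 change of -0.48 ± 0.05 (edgeR adjusted p = 1.23e-06) that was -1.10 against the first untreated set. The second untreated set thus lay at the level of the prednisolone-treated cells. Against that second set the prednisolone fold change of FKBP4 was -0.10 and lost its call (edgeR adjusted p = 0.139). Both exchanges of the untreated sets were chosen after seeing the data. Knockout cells fell from 76.6, 77.4 and 81.0 CPM to 56.3, 60.6 and 58.1 CPM with prednisolone, a log2 change of -0.47 ± 0.06 (edgeR adjusted p = 0.000127). Dexamethasone gave 48.2, 50.4 and 53.7 CPM in the knockout, a log2 change of -0.61 ± 0.06 (edgeR adjusted p = 1.96e-05), which became 0.028 (edgeR adjusted p = 0.810) once the difference between the untreated Nalm6 sets was subtracted. CEM had the most FKBP4, with 176, 170.4 and 171 CPM untreated and 115, 109 and 110.4 CPM with prednisolone, a log2 change of -0.66 ± 0.03 (edgeR adjusted p = 1.94e-11). Treated and untreated FKBP4 libraries did not overlap in any of the 5 comparisons.

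The balance between the immunophilins was taken as the ratio of FKBP5 to FKBP4 in CPM per kb of exon. Untreated Nalm6 libraries had ratios of 1.34, 1.36 and 1.21 and prednisolone libraries 7.13, 6.84 and 6.53. In the second set the ratio went from 1.32, 1.66 and 1.71 to 13.8, 14.3 and 13.8 with dexamethasone. FKBP5 therefore exceeded FKBP4 per length in both untreated Nalm6 sets and more so under hormone. The log2 ratio was higher by 2.39 ± 0.06 (SE) with prednisolone and by 3.17 ± 0.12 with dexamethasone. Against the other untreated set these differences were 2.14 and 3.42.

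In the untreated knockout FKBP4 exceeded FKBP5, with ratios of 0.795, 0.882 and 0.655, and prednisolone brought the ratio to 2.18, 2.02 and 2.28. Knockout dexamethasone libraries had ratios of 2.37, 2.32 and 2.13. The log2 ratio was higher by 1.48 ± 0.14 and 1.55 ± 0.13, and the second value was 1.30 with the difference between untreated Nalm6 sets removed. CEM started with the lowest ratios outside CHIR-99021, 0.307, 0.365 and 0.308, and prednisolone brought them to 2.74, 2.96 and 2.74, a log2 difference of 3.11 ± 0.09. With prednisolone CEM held 643 ± 20.2 CPM of FKBP5 and 111 ± 3.15 CPM of FKBP4 (SD, n = 3), against 367 ± 16.2 and 26.2 ± 0.0770 in Nalm6. Each of these 5 differences separated the 6 libraries completely, with p = 0.1 in a two-sided exact permutation test, the smallest that 3 against 3 libraries allow, and 0.122 after Benjamini-Hochberg adjustment over 11 comparisons of the ratio.

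**Figure D2:**
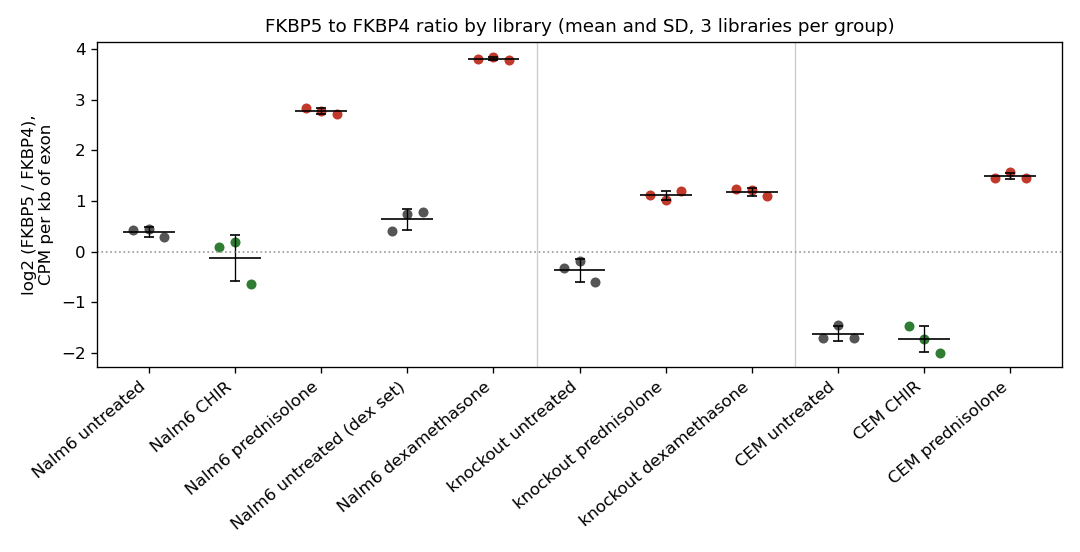
log2 of the FKBP5 to FKBP4 ratio (vertical axis, CPM per kb of exon) in each of the 33 libraries by group; points are libraries (red glucocorticoid, green CHIR-99021, grey untreated), lines and bars the mean and SD over 3 libraries, and the dotted line marks equal levels. Glucocorticoid libraries lie above the line in all 3 lines, highest in Nalm6 with dexamethasone, and untreated knockout and CEM libraries lie below it.

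Of the 10 genes, prednisolone in Nalm6 changed all 10, with 3 higher (NR3C1, FKBP5 and NCOA2) and 7 lower, in a comparison that called 54.8% of 18658 genes. The median log2 change of the 10 was -0.41 against 0.03 over all genes tested. Dexamethasone in Nalm6 also called all 10, with the same 3 higher, among 60.5% of all genes, and prednisolone in CEM called all 10, 4 higher and 6 lower, among 45.1%. The fourth gene in CEM was NR3C2. In the knockout, prednisolone called 8 of 10 among 41.7% of all genes and dexamethasone 8 of 10 among 52.3%, in each case 2 higher (NR3C1 and FKBP5) and 6 lower. The comparisons of the knockout with both hormones share the same untreated libraries. Against the second untreated set, Nalm6 prednisolone called 8 of the 10 among 64.3% of all genes. Against the first untreated set, Nalm6 dexamethasone called all 10 among 72.8%, and with the set difference removed knockout dexamethasone called 7 among 40%.

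**Figure D3:**
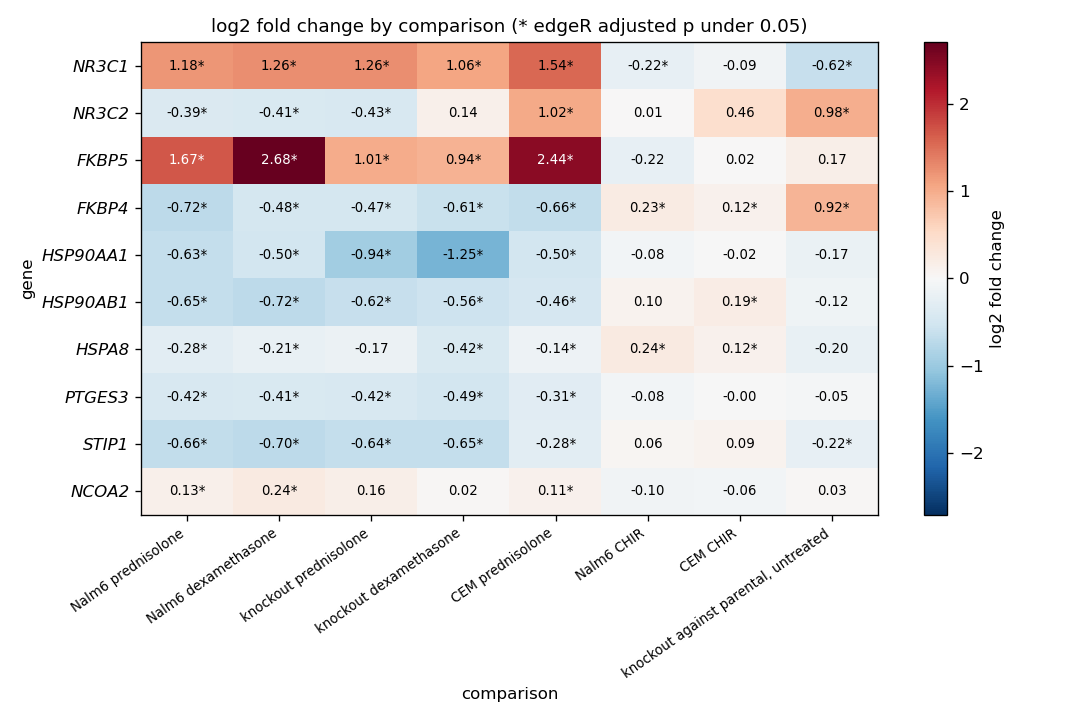
Fitted log2 change (colour and printed value) of the 10 genes (vertical) in 8 comparisons (horizontal), each of 3 against 3 libraries; an asterisk marks an edgeR adjusted p under 0.05. NR3C1 and FKBP5 are positive and FKBP4, both cytosolic HSP90 genes, PTGES3 and STIP1 negative in all 5 glucocorticoid columns, while the CHIR-99021 columns stay between -0.22 and 0.46.

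The inducible and constitutive cytosolic Hsp90 genes both fell under glucocorticoids. HSP90AB1 (ENSG00000096384.20_1), the constitutive form, went from 2148, 2031 and 2027 CPM to 1394, 1309 and 1335 CPM in Nalm6 with prednisolone, a log2 change of -0.65 ± 0.04 (edgeR adjusted p = 9.04e-10). Dexamethasone lowered it from 1852, 1969 and 1935 CPM to 1185, 1214 and 1194 CPM, a log2 change of -0.72 ± 0.04 (edgeR adjusted p = 6.96e-10). The untreated libraries of both sets were close, and none overlapped with treated ones. Knockout cells fell by 0.62 ± 0.06 on the log2 scale with prednisolone and by 0.56 ± 0.05 with dexamethasone, from 1864 to 1881 CPM untreated to 1219 to 1278 CPM over the 6 treated libraries. CEM libraries fell from 1369, 1400.1 and 1309 CPM to 1020.3, 1012 and 995 CPM, by 0.46 ± 0.03 on the log2 scale. The fall in CEM was smaller than in Nalm6 by 0.20 ± 0.06 (edgeR adjusted p = 0.00871).

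HSP90AA1 (ENSG00000080824.19_1), the stress-inducible form, fell too, with a wider spread between untreated libraries. The first untreated Nalm6 set gave 976, 946 and 971 CPM and the prednisolone libraries 728, 605 and 572 CPM, a log2 change of -0.63 ± 0.06 (edgeR adjusted p = 1.82e-07). The second set gave 506, 643 and 671 CPM untreated and 423, 447 and 449.8 CPM with dexamethasone, a log2 change of -0.50 ± 0.07 (edgeR adjusted p = 4.21e-05) that was -1.09 against the first untreated set. As with FKBP4, the second untreated set was at the level of prednisolone-treated cells, and against it the prednisolone fold change was -0.05 and lost its call (edgeR adjusted p = 0.662). Untreated knockout libraries held 897, 1002 and 625 CPM, prednisolone libraries 503, 403 and 449 CPM and dexamethasone libraries 349, 350.2 and 348 CPM. The log2 changes were -0.94 ± 0.15 and -1.25 ± 0.13 (edgeR adjusted p = 0.000576 and 2.47e-05), and the second was -0.65 once the difference between untreated sets was removed. The third untreated knockout library stood low, yet above all treated ones. In CEM the libraries went from 1171, 1525 and 1115 CPM to 923, 948 and 891 CPM, a log2 change of -0.50 ± 0.08 (edgeR adjusted p = 3.73e-05).

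HSPA8 (ENSG00000109971.14_1), the constitutive cytosolic Hsp70, moved least among the chaperones. Prednisolone lowered it in Nalm6 from 2796, 2631 and 2732 CPM to 2352, 2203 and 2276 CPM, a log2 change of -0.28 ± 0.04 (edgeR adjusted p = 2.84e-05). Dexamethasone lowered it from 2796, 2688 and 2605 CPM to 2391, 2402 and 2389 CPM, by 0.21 ± 0.04 on the log2 scale. In CEM it fell by 0.14 ± 0.03, from 1873 to 1983 CPM to 1779.6 to 1809.9 CPM. These groups did not overlap. Knockout libraries held 2229, 2124 and 2614 CPM untreated and 2338, 2025 and 2024 CPM with prednisolone, which overlapped, and the log2 difference of -0.17 ± 0.10 did not pass the test (edgeR adjusted p = 0.190). Knockout dexamethasone libraries, at 1641, 1752 and 1773 CPM, were lower by 0.42 ± 0.08 (edgeR adjusted p = 0.00144).

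STIP1 (ENSG00000168439.17_1), the Hop adaptor between Hsp70 and Hsp90, fell in all 5 comparisons with little spread. Nalm6 went from 299, 299.5 and 304 CPM to 201, 193 and 190.4 CPM with prednisolone (log2 change -0.66 ± 0.04, edgeR adjusted p = 8.72e-11) and from 272, 286 and 284 CPM to 174, 176 and 180.4 CPM with dexamethasone (-0.70 ± 0.04, edgeR adjusted p = 1.12e-09). Knockout libraries went from 255, 249.6 and 258 CPM to 176, 163 and 165 CPM with prednisolone and 157, 159.6 and 165 CPM with dexamethasone, log2 changes of -0.64 ± 0.06 and -0.65 ± 0.05. The log2 changes of STIP1 in the 4 Nalm6-derived comparisons thus lay between -0.70 and -0.64. CEM went from 339, 333 and 333 CPM to 284, 282 and 279 CPM, a log2 change of -0.28 ± 0.03, smaller than in Nalm6 by 0.39 ± 0.05 (edgeR adjusted p = 7.39e-07).

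PTGES3 (ENSG00000110958.16_1), which encodes p23, fell by less. Prednisolone took it from 346, 345 and 348 CPM to 278, 257 and 256 CPM in Nalm6, a log2 change of -0.42 ± 0.04 (edgeR adjusted p = 7.66e-08), which was -0.19 against the second untreated set. Dexamethasone took it from 264, 287 and 282 CPM to 216, 210.1 and 218 CPM, a log2 change of -0.41 ± 0.04 (edgeR adjusted p = 6.32e-07), which was -0.65 against the first untreated set. The knockout fell by 0.42 ± 0.08 with prednisolone and by 0.49 ± 0.07 with dexamethasone on the log2 scale, and the second was -0.24 with the difference between untreated sets removed. CEM fell by 0.31 ± 0.04, from 342, 375 and 336 CPM to 292, 295 and 283 CPM. Treated and untreated PTGES3 libraries of the same comparison did not overlap in any of the 5.

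**Figure D4:**
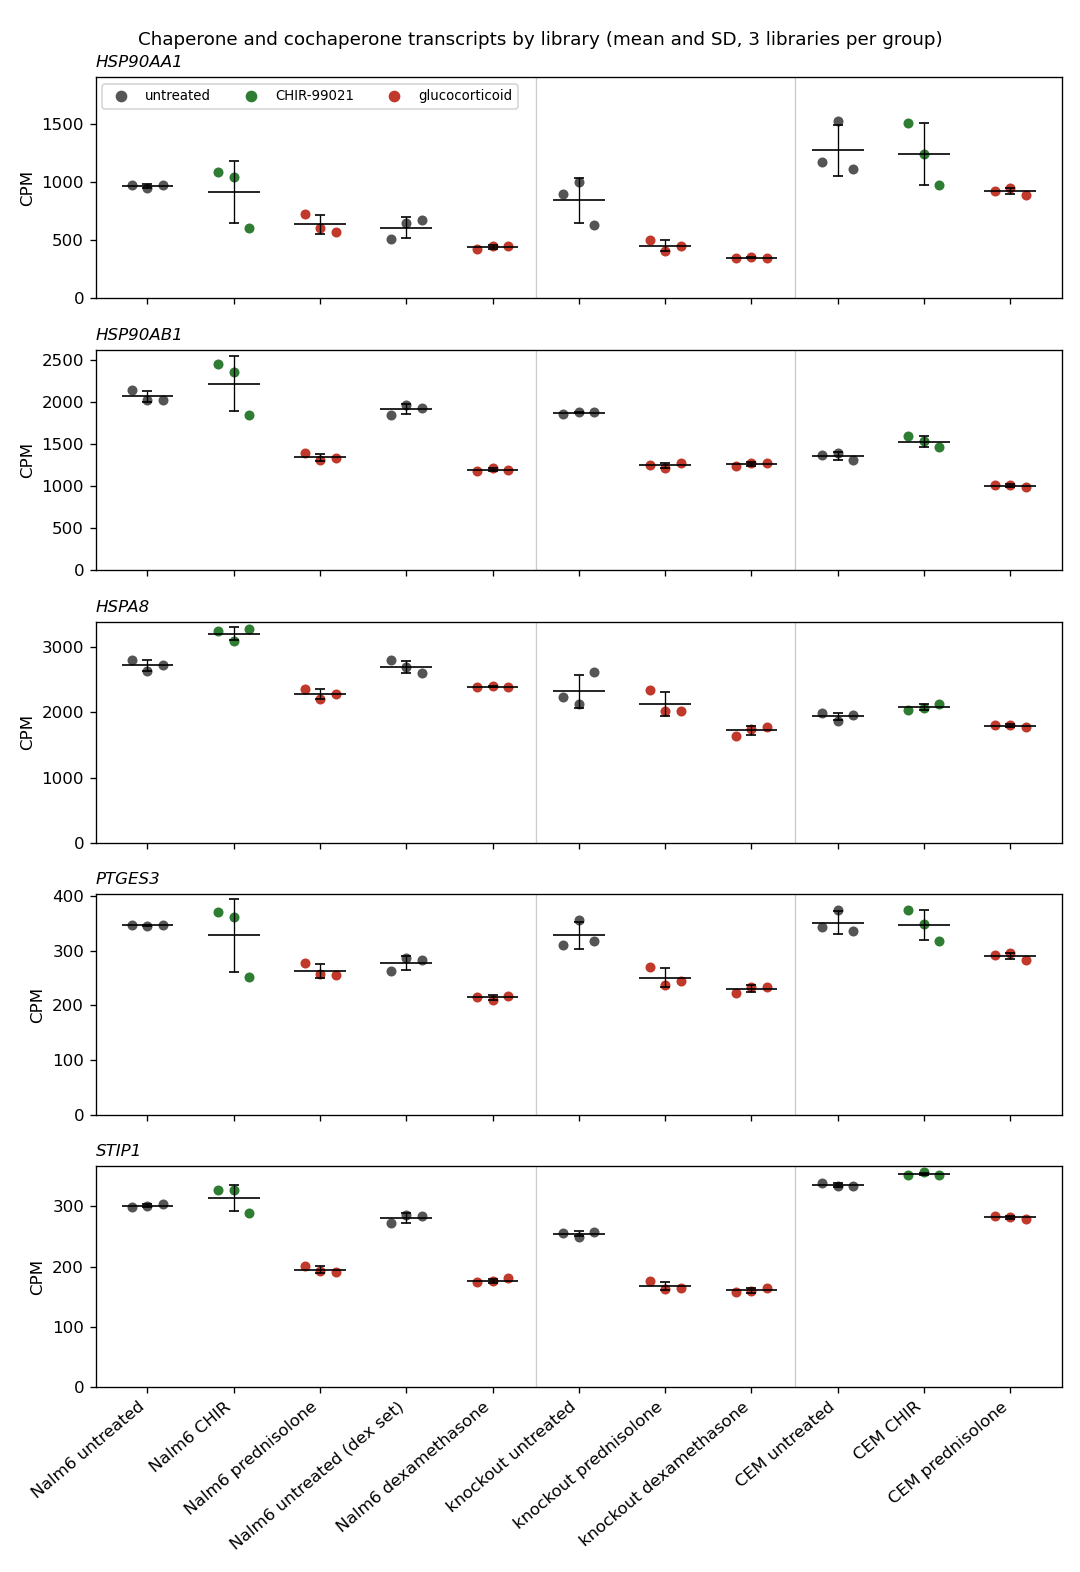
CPM of HSP90AA1, HSP90AB1, HSPA8, PTGES3 and STIP1 (vertical axes, linear, from 0) in each of the 33 libraries by group; points are libraries (red glucocorticoid, green CHIR-99021, grey untreated), lines and bars the mean and SD over 3 libraries. HSP90AB1 and STIP1 are lower in every glucocorticoid group than in the untreated group it was compared with, with narrow spread, while HSP90AA1 spreads from 602 to 1081 CPM among the Nalm6 CHIR-99021 libraries.

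NCOA2 (ENSG00000140396.13_1), a p160 coactivator that binds the hormone-bound receptor, changed by small amounts. It rose from 72.4, 75.1 and 75.3 CPM to 85.0, 84.2 and 79.9 CPM with prednisolone in Nalm6, a log2 change of 0.13 ± 0.04 (edgeR adjusted p = 0.00758), and the call was lost without the first prednisolone library (adjusted p = 0.0834). Dexamethasone raised it from 65.8, 65.2 and 66.7 CPM to 79.5, 81.2 and 78.4 CPM, a log2 change of 0.24 ± 0.04 (edgeR adjusted p = 8.89e-05). In CEM the log2 change was 0.11 ± 0.03 (edgeR adjusted p = 0.0121) and was lost without the third prednisolone library (adjusted p = 0.0651). The knockout values, 0.16 ± 0.07 with prednisolone and 0.02 ± 0.06 with dexamethasone, did not pass the test (edgeR adjusted p = 0.0668 and 0.775).

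NR3C2 (ENSG00000151623.15_1), whose receptor shares the Hsp90 machinery and binds glucocorticoids as well as aldosterone, was scarce. Nalm6 libraries held 4.36, 4.67 and 4.30 CPM untreated and 3.53, 3.62 and 3.22 CPM with prednisolone, a log2 change of -0.39 ± 0.10 (edgeR adjusted p = 0.00312). Dexamethasone gave -0.41 ± 0.10 (edgeR adjusted p = 0.00233), from 4.78, 4.55 and 4.61 CPM to 3.54, 3.89 and 3.35 CPM. Untreated knockout libraries held 8.51, 9.17 and 8.16 CPM, 1.97-fold the parental level (log2 difference 0.98 ± 0.09, edgeR adjusted p = 5e-05). Knockout prednisolone libraries were lower than that by 0.43 ± 0.12 (edgeR adjusted p = 0.0164), a call lost without the third prednisolone or the second untreated library (adjusted p = 0.0649 and 0.0633). The dexamethasone change of 0.14 ± 0.10 did not pass the test (edgeR adjusted p = 0.256). In CEM NR3C2 had 8 to 18 counts per untreated library and 25 or 26 with prednisolone, a log2 change of 1.02 ± 0.28 (edgeR adjusted p = 0.00643). Opposite-strand reads at NR3C2 amounted to 84.6% of the sense count in untreated CEM and to 44.7% with prednisolone, and the unstranded counts gave 0.67.

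CHIR-99021 moved few of the 10 genes. In Nalm6 it called 3 of 10 among 7.88% of 18082 genes. NR3C1 held 203, 198 and 221 CPM, all below the untreated libraries (log2 change -0.22 ± 0.05, edgeR adjusted p = 0.0170). HSPA8 held 3241, 3095 and 3284 CPM, all above them (0.24 ± 0.05, edgeR adjusted p = 0.0168), and FKBP4 52.1, 50.1 and 45.8 CPM (0.23 ± 0.06, edgeR adjusted p = 0.0420). The third CHIR-99021 library stood apart at FKBP5, with 59.9 CPM against 113 and 117, at HSP90AA1, with 602 against 1081 and 1046, and at PTGES3, with 251 against 370.1 and 362. Its ratio of sense to opposite-strand gene counts, 12.3, was the lowest of the 33 libraries, and the part of that in these values was not tested. Without that library 6 of the 10 genes were called among 14.8% of all genes, HSP90AB1 at 0.23 (edgeR adjusted p = 0.000595), HSP90AA1 at 0.15 (edgeR adjusted p = 0.00526) and STIP1 at 0.12 (edgeR adjusted p = 0.0110) among them. The NR3C1 and FKBP4 calls were each lost in 5 of the 6 fits that left out 1 library, and the HSPA8 call without the second or the third untreated library (edgeR adjusted p = 0.138 and 0.102).

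CEM with 2 µM CHIR-99021 called 3 of 10 genes, all higher, among 10.8% of 17200 genes. HSP90AB1 held 1595, 1536 and 1466 CPM against 1369, 1400.1 and 1309 untreated (log2 change 0.19 ± 0.04, edgeR adjusted p = 0.00830). HSPA8 and FKBP4 were each higher by 0.12 on the log2 scale (SE 0.03, edgeR adjusted p = 0.0318 and 0.0420). Leaving out 1 library ended the FKBP4 call in 6 of 6 fits, the HSPA8 call in 4 of 6 and the HSP90AB1 call without the third untreated library (edgeR adjusted p = 0.0518). NR3C1 held 194, 190.0 and 183 CPM, below the untreated libraries, and its log2 change of -0.09 ± 0.04 did not pass the test (edgeR adjusted p = 0.146). The FKBP5 to FKBP4 ratio with CHIR-99021 was 1.06, 1.14 and 0.638 in Nalm6 and 0.359, 0.302 and 0.251 in CEM, log2 differences of -0.51 ± 0.27 and -0.11 ± 0.17. The first did not overlap the untreated libraries and the second did (two-sided exact permutation p = 0.1 and 0.4).

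Between untreated lines, 4 of the 10 genes were called for the knockout against parental Nalm6, where 27.1% of 17208 genes were called. NR3C2 and FKBP4 were higher in the knockout and NR3C1 and STIP1 lower. FKBP4 differed by 0.92 ± 0.05 on the log2 scale (edgeR adjusted p = 4.43e-06) and STIP1 by -0.22 ± 0.04 (edgeR adjusted p = 0.00565). Without the third untreated knockout library 7 genes were called among 36.7% of all genes. With the second untreated Nalm6 set in place of the first 7 genes were called among 36.6%, FKBP4 was higher in the knockout by 1.57 (edgeR adjusted p = 1.51e-07) and FKBP5 by 0.55 (edgeR adjusted p = 0.00607). CEM against Nalm6 called 7 of 10, 3 higher and 4 lower, in a comparison that called 82.8% of 19041 genes. FKBP4 was 4.23-fold higher in CEM (edgeR adjusted p = 1.28e-17) and NR3C2 lay at 0.0730 of the Nalm6 level (edgeR adjusted p = 2.34e-12), while NR3C1 was at 0.873 of it (edgeR adjusted p = 7.28e-06). Against the second untreated Nalm6 set all 10 genes were called among 77.5% of all genes. The CEM difference on the log2 scale then went from 2.08 to 2.7 for FKBP4, from 0.45 to 1.03 for HSP90AA1 and from 0.08 to 0.44 for FKBP5. Between the 2 untreated Nalm6 sets, the called genes were FKBP4 (-0.64 ± 0.05), HSP90AA1 (-0.61 ± 0.08), FKBP5 (-0.38 ± 0.08), PTGES3 (-0.26 ± 0.04) and NCOA2 (-0.11 ± 0.04), on the log2 scale and lower in the second set. The NCOA2 call was lost in 3 of 6 fits that left out 1 library. NR3C1 differed there by -0.08 ± 0.04 and did not pass the test (edgeR adjusted p = 0.166).

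The difference between CEM and Nalm6 in the prednisolone response was called for 6 of the 10 genes, all with the higher value in CEM, among 26.9% of 20491 genes. These were NR3C1, FKBP5, NR3C2, HSP90AB1, STIP1 and HSPA8. For HSP90AB1, STIP1 and HSPA8 the positive value means a smaller fall in CEM, and the HSPA8 call was lost in 7 of 12 fits that left out 1 library. The FKBP4 responses of the lines differed by 0.07 ± 0.06 and did not pass the test (edgeR adjusted p = 0.464). All these contrasts used the first untreated Nalm6 set and were not refitted with the second. Against the second set the Nalm6 change of FKBP4 was -0.10, next to -0.66 in CEM, so the FKBP4 result holds for the first set only.

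Genes around the complex were read from lists fixed by function. Of 13 tested Hsp90 and Hsp70 paralogs, prednisolone in Nalm6 raised 2 and lowered 7, where 54.8% of all genes were called, with a median log2 change of -0.14 against 0.03 over all genes. TRAP1, the mitochondrial Hsp90, fell by 0.74 ± 0.04 on the log2 scale and HSPA9, the mitochondrial Hsp70, by 0.61 ± 0.04 (edgeR adjusted p = 5.86e-11 and 3.46e-10). TRAP1, HSPA9 and HSPH1 fell in all 5 glucocorticoid comparisons. HSP90B1, the endoplasmic reticulum Hsp90, rose by 0.14 with prednisolone in Nalm6 and fell by 0.14 with dexamethasone in Nalm6 (edgeR adjusted p = 0.00215 and 0.00377). It fell by 0.33 in CEM with prednisolone and by 0.74 in the knockout with dexamethasone. In the knockout with prednisolone its log2 change of 0.04 did not pass the test (edgeR adjusted p = 0.640).

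Among 20 other Hsp90 and Hsp70 cochaperones, prednisolone in Nalm6 raised 1 and lowered 14, dexamethasone raised 0 and lowered 13, and CEM prednisolone raised 1 and lowered 13. These comparisons called 54.8%, 60.5% and 45.1% of all genes. In the knockout, prednisolone lowered 10 of 20 and raised 0, and dexamethasone lowered 8 and raised 2, close to the 41.7% and 52.3% of all genes called there. AHSA1, the activator of the Hsp90 ATPase, fell by 0.48 ± 0.04 with prednisolone in Nalm6, DNAJA1, an Hsp40, by 0.46 ± 0.04 and NUDC by 0.58 ± 0.04. AHSA1, DNAJA1, NUDC, TOMM34 and the receptor-associated phosphatase PPP5C fell in all 5 glucocorticoid comparisons. BAG1, a nucleotide exchange factor for Hsp70, was the gene that rose in Nalm6 with prednisolone, by 0.11 ± 0.03 (edgeR adjusted p = 0.0113).

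Of 8 tested heat shock factors and stress chaperones, 4 fell and 0 rose in Nalm6 with prednisolone, and 3 fell and 4 rose in CEM, where 54.8% and 45.1% of all genes were called. The Nalm6 share is near that of all genes. HSPD1 and HSPE1, the mitochondrial chaperonin pair, fell in all 5 comparisons, in Nalm6 with prednisolone by 0.79 ± 0.04 and 0.79 ± 0.05. HSPB1 fell by 0.66 ± 0.06 in Nalm6 and rose by 0.20 ± 0.07 in CEM (edgeR adjusted p = 1.98e-08 and 0.0344). HSF1, the factor that binds heat shock elements and is named after its value was seen, rose in CEM by 0.36 ± 0.04 (edgeR adjusted p = 2.01e-07). HSF1 was not called in the other 4 glucocorticoid comparisons, where its lowest log2 change was -0.17. Of 9 other tested FKBP immunophilins, 5 fell and 0 rose in Nalm6 with prednisolone, also near the 54.8% of all genes called, and FKBP11 was the one that fell in all 5 comparisons.

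Receptor coregulators moved both ways, with 8 of 21 higher and 7 lower in Nalm6 with prednisolone, where 54.8% of all genes were called, 5352 higher and 4879 lower. NCOA1 and NCOA3, the other p160 coactivators, rose by 0.48 ± 0.04 and 0.56 ± 0.04 there, and NCOA3 rose in all 5 comparisons. The arginine methyltransferase CARM1 fell by 0.67 ± 0.04, the corepressor NRIP1 by 0.66 ± 0.04 and PPARGC1B by 0.77 ± 0.05. CARM1 and PPARGC1B fell in all 5 comparisons, while NRIP1 in CEM stood at 0.04 ± 0.03 (edgeR adjusted p = 0.360). H6PD, which supplies cofactor to the enzyme that regenerates active glucocorticoid, rose in all 5 comparisons, by 0.65 ± 0.06 in Nalm6 with prednisolone. ESR1 was the only one of 4 other steroid receptor genes tested in Nalm6 and fell by 0.46 ± 0.08 with prednisolone.

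Among the genes whose group means over the 11 groups were most like those of NR3C1, by Pearson r of mean log2 CPM among 9669 candidates, were SOS2 (0.97), ZNF671 (0.96), NFKBIA (0.95) and SP100 (0.95). For FKBP5 they were SMAP2 (0.98), PAXIP1 (0.97), ZNF513 (0.96), PIK3IP1 (0.96) and TOB1 (0.95), and for FKBP4 PKP4, GALK2 and TRMT5 (each 0.98), with ANKS6 and MTPAP (each 0.97). Within the complex, NR3C1 and FKBP5 had r = 0.93 over the 11 groups and NR3C1 and HSP90AB1 had r = -0.76. These values describe group means that share libraries, lines and the glucocorticoid contrast.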

How the data were processed

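RNA was sequenced from 33 libraries of human ALL lines. The authors deposited whole-number read counts for each gene, unstranded and by strand, in the layout of a STAR gene count table. The submitters' processing notes name Bowtie2, DESeq2 and hg19 with no versions; the aligner version, annotation and filters are not given in the sources used here. Column 4 was used, since it held 12.3 to 15.3 times the gene total of column 3. The 4 rows that name no gene stayed out of totals and tests: unmapped reads were 2.84% to 11.2%, multiply mapped 4.83% to 7.55%, outside genes 18.4% to 32.7% and ambiguous 4.70% to 7.45% of a library. Totals of 25292579 to 61930057 counts put 3 counts, the least taken as detection, at 4.84e-06% to 1.19e-05% of a library, for counting error only.

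Symbols came from the gene name table for 58695 of 62446 entries, and exon lengths for CPM per kb from GENCODE on GRCh38, so no hg19 coordinates are given. Each comparison was fitted on its own groups with edgeR 4.0.16 in R 4.3.3 (filterByExpr, TMM, quasi-likelihood F test, Benjamini-Hochberg over all genes tested, called at adjusted p under 0.05); the SE was derived from the F statistic. Differences between responses were interaction contrasts over 4 groups. The scripts were tested on simulated data with 200 genes changed by 1 on the log2 scale. For prednisolone in Nalm6, the knockout and CEM they recovered 89.5%, 80.5% and 86% of these, with 21, 13 and 13 false calls. For the knockout minus parental contrast they recovered 67.5%, with 10 false calls. The 200 changed genes were fewer than the 624 to 10231 that these comparisons called in the real data. Recovery of changes smaller than 1 was not tested. Replicate pairs of a group differed by more than sampling noise (chi-square per degree of freedom 1.77 to 39.0), so none was merged. Same-numbered libraries deviated together, with every pair's correlation over 0.1, for Nalm6 prednisolone (0.11 to 0.21) and for the untreated Nalm6 sets (0.15 to 0.43). The fit with the number as a block is treated as paired for those, and only there. That pairing rests on the correlations, since the titles give only a replicate number. Values in the text come from the fit without a block, except where the block or another alternative is named.

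The 10 genes and the lists were chosen with earlier results of these data known. All 10 are named in every comparison. From each list the text names up to 3 genes with the largest rise and 3 with the largest fall among those called under prednisolone in Nalm6 at an average log2 CPM of at least 1, and further genes only where they passed in all 5 glucocorticoid comparisons or are named as chosen after their values were seen. Likeness used genes with a mean log2 CPM of at least 3, with 0.5 CPM added. The text names the 5 genes most like each of NR3C1, FKBP5 and FKBP4, except 1 that is not reported here. Alternatives were DESeq2 1.42.0, RLE size factors, no filter or at least 10 counts, the unstranded column, the replicate block, leaving out each library, and, partly chosen after seeing the data, the other untreated Nalm6 set. The differences between prednisolone responses were not refitted with that other set.

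FKBP4 keeps 73.2% of its column 4 counts in the unstranded column, where reads shared with a gene on the other strand are dropped. Named pseudogenes of the chaperone genes hold at most 0.166% of the parent counts.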

Additional observations from a re-analysis of the deposited data

Results flagged for a closer look

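The FKBP5 response to prednisolone differed between the knockout and parental Nalm6 by -0.64 on the log2 scale in a test of the difference itself (edgeR interaction contrast, adjusted p = 0.00135). The difference kept its call and direction in all 18 alternative fits, from -0.72 to -0.54, but none of these used the second untreated Nalm6 set. In parental Nalm6 alone, the FKBP5 change reached 2.03 over alternative fits that included that set. TLE1 itself also responded differently, by -0.46 (edgeR adjusted p = 0.0136). The part of TLE1 in the FKBP5 value was not tested.

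Between CEM and Nalm6 the same kind of test called NR3C1 (0.37), NR3C2 (1.42), FKBP5 (0.79), HSP90AB1 (0.20), HSPA8 (0.16) and STIP1 (0.39), each as the CEM response minus the Nalm6 response on the log2 scale (edgeR adjusted p from 3.32e-09 to 0.0353). The prednisolone doses were 10 µM in CEM and 5 µM in Nalm6, so line and dose cannot be told apart. Only the first untreated Nalm6 set entered these contrasts. The NR3C2 value rests on 8 to 26 counts per CEM library.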

How the results depend on the processing

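Over the 10 genes and 13 comparisons, 1725 refits were made; 1597 kept direction and side of the threshold, 58 lost the call, 31 gained one and 39 changed sign, 36 of these with no call in either fit. The 3 with a call were HSP90AA1 with CHIR-99021 in Nalm6 without the third CHIR-99021 library (0.15; -0.22 to 0.15 over all libraries left out in turn), FKBP4 in the knockout with dexamethasone once the untreated set difference was removed (0.028), and PTGES3 in the knockout against the second untreated Nalm6 set (0.21). Against that set the uncalled log2 difference of HSP90AA1 went from -0.17 to 0.45. The unstranded column gave 0.0088 for HSP90AB1 and 0.018 for STIP1 between the untreated Nalm6 sets and 0.0069 for PTGES3 with CHIR-99021 in CEM, where no filter gave 0.0049. NCOA2 was -0.026 for CEM against Nalm6 with at least 10 counts, and its CEM minus Nalm6 response 0.010 with that filter and 0.0021 with none. Log2 changes that were not called with all libraries and crossed 0 on leaving out 1 ranged, with CHIR-99021 in Nalm6, from -0.40 to 0.036 for FKBP5, -0.17 to 0.086 for PTGES3 and -0.0074 to 0.044 for NR3C2, and with CHIR-99021 in CEM from -0.10 to 0.13 for FKBP5, -0.18 to 0.14 for HSP90AA1 and -0.060 to 0.056 for PTGES3. NCOA2 ranged from -0.013 to 0.078 for knockout dexamethasone, -0.032 to 0.064 for the untreated knockout, -0.014 to 0.021 for CEM against Nalm6 and -0.040 to 0.0084 for their responses. The knockout minus parental response ranged from -0.068 to 0.091 for NR3C2, -0.049 to 0.089 for PTGES3 and -0.0065 to 0.073 for STIP1. The genes called with CHIR-99021 in Nalm6 ranged from 0 (without untreated library 2 or 3) to 6 (without the third CHIR-99021 library), and those called with CHIR-99021 in CEM from 0 to 2 on leaving out a library. For the untreated knockout the count ranged from 4 to 7 (7 without the third knockout library) and was 7 with the second untreated Nalm6 set. The difference in prednisolone response between knockout and parental cells called 1 to 3 (3 without the third untreated knockout library), 2 with DESeq2 and 2 with at least 10 counts. The difference between treated and untreated libraries in the log2 ratio of FKBP5 to FKBP4 moved to 2.14 for Nalm6 prednisolone, 3.42 for Nalm6 dexamethasone and 1.30 for knockout dexamethasone with the other untreated set or the set difference removed. All-gene counts with CHIR-99021 in Nalm6 ranged from 409 to 2708 around 1425, and in CEM from 1001 to 2304 around 1865; the untreated knockout comparison gave 2804 to 6732 around 4655 and the knockout minus parental contrast 346 to 1852 around 624. The causes were not tested.

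With the replicate block, the CHIR-99021 comparison in CEM called 1 gene in place of 3, and same-numbered libraries there share only a number. Over all genes, its main and alternative fits called 1001 to 2304. In the paired comparisons, Nalm6 prednisolone and the untreated Nalm6 sets, the block left 10 and 5 genes called. Their main and alternative fits called 9126 to 11186 and 7227 to 10746 of all genes. Counts of NR3C2 in CEM, at 8 to 26 per library, limit its precision.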

Other observations

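In 5 of the 6 groups without glucocorticoid, the library lowest in HSP90AA1 was also the lowest in FKBP5, and in 5 of 6 it was the lowest in PTGES3, against 1 of 6 for HSPA8; this was noticed after the values were seen. In the 5 glucocorticoid groups the counts were 2 of 5 for FKBP5 and 3 of 5 for PTGES3. How many of all genes share the lowest library was not counted, so these counts are not shown to be particular to these genes. In Nalm6 with CHIR-99021 the third library stood apart over all genes. Its chi-square per degree of freedom was 37.5 and 39.0 against the first and second libraries, which differed from each other by 5.26. The highest library exceeded the lowest by up to 1.80-fold in HSP90AA1 and 1.96-fold in FKBP5 without hormone, and by up to 1.27-fold and 1.09-fold with it.

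Other receptor and transport genes moved in CEM with prednisolone, named here after their values were seen. ESR2, an oestrogen receptor gene, went from 0.424 ± 0.0256 CPM to 4.48 ± 0.394 CPM (SD, n = 3), a log2 change of 3.37 ± 0.16 (SE, edgeR adjusted p = 1.63e-11). ABCB1, which encodes the efflux pump P-glycoprotein that transports glucocorticoids, went from 0.614 ± 0.103 to 1.22 ± 0.138 CPM, a log2 change of 0.99 ± 0.21 (edgeR adjusted p = 0.000779). BAG3, an Hsp70 cochaperone induced by stress, rose by 0.36 ± 0.06 (edgeR adjusted p = 9.43e-05).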
